A study of Mus musculus with 3 samples.

Results

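The fibroblast growth factor (FGF) genes described here are Fgf1, Fgf2, Fgf9, Fgf13, Fgf16, Fgf21, Fgf23 and the receptor genes Fgfr1, Fgfr2 and Fgfr4, 10 of the 56748 genes of the deposited count table, each found by its gene name. RNAseq was performed on adult cardiomyocytes (ACMs) isolated from hearts of WT mice aged 8 to 10 weeks and kept in serum-free culture. The study used this experiment to look for targets of oncostatin M (OSM) and putative effectors of JAK1-STAT3 signalling. It tested the need for JAK1 separately in JAK1-deleted ACMs, by qPCR of top induced genes and by STAT3 phosphorylation and nuclear translocation. One culture condition received vehicle (0.1% BSA), another 10 ng/mL of mouse OSM and another 10 ng/mL of human interleukin-6 (IL-6), for 16 h each, and both cytokines signal through gp130. The vehicle, OSM and IL-6 conditions shared the isolation, plating and culture media, including the contraction inhibitor BDM and insulin-transferrin-selenium. Samples were pooled at RNA clean-up and each condition is 1 library. Without replicates, no difference is checked against biological spread and no P-value is given. Each comparison is of libraries, not of conditions. The counts sum to between 24939980 (vehicle) and 30773001 (OSM) per library.

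FGFs are a family of secreted and intracellular proteins. Most are paracrine ligands that bind heparan sulfate and activate receptor tyrosine kinases of the FGFR family, which signal through the adaptor FRS2 to the ERK cascade. FGF21 and FGF23 belong to the endocrine branch. They bind heparan sulfate weakly, circulate as hormones and are best known to act with the membrane co-receptors beta-Klotho and alpha-Klotho. FGF13 belongs to a further branch that stays inside the cell and regulates voltage-gated sodium channels. In the heart, FGF signalling is known for its roles in cardiomyocyte growth, survival and hypertrophy.

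Fgf23 (ENSMUSG00000000182) was the member that differed most between libraries. It encodes a hormone that bone cells release and that lowers phosphate reabsorption in the kidney. Nothing was counted with vehicle (0 counts) or with IL-6 (0 counts), and 114 counts (2.10 fpkm) were counted with OSM. The OSM library therefore stood apart from the vehicle and IL-6 libraries, which did not differ. The bound of Fgf23 against a floor of 3 counts per library was 32.1-fold for OSM over vehicle and 34.4-fold for OSM over IL-6. The lower 95% Clopper-Pearson limits of the same counts were lower, at 25.7-fold and 27.6-fold. The table held 36266 genes without counts in both the vehicle and IL-6 libraries, of which 82 reached 10 counts with OSM. This set is defined by the zeros that Fgf23 itself shows, so a rank within it is a description only. In this set, Fgf23 had the most counts with OSM. The next was Trbc2, a T cell receptor constant gene, with 66 counts, and only Fgf23 reached 100, a limit set after its count was known.

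In GRCm39, the deposited table places Fgf23 on the plus strand of chromosome 6, between 127049865 and 127058371. Its canonical transcript in GENCODE M39 has 3 exons and ends further downstream, at 127059255. No other gene of the table overlaps it, and stretches shared with transcripts of other genes at 97% identity covered 1.85% of its transcript, none longer than 40 bases. The genes whose profile over the 3 libraries lay nearest to that of Fgf23, among 11936 protein-coding genes and by Euclidean distance in the log2 ratios of OSM and IL-6 to vehicle, were Steap4, Egfr and Crym. For this distance 0.5 was added to each count, and since Fgf23 had no counts with vehicle or IL-6, its place and the order of its neighbours rest on that constant. Steap4, a metalloreductase, had 18 counts with vehicle, 17 with IL-6 and 2849 with OSM. Egfr, the EGF receptor, had 2, 4 and 386 counts, and Crym, a thyroid hormone-binding protein, 0, 0 and 41. Fgf23 and Crym alone among these had no counts without OSM.

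The regions before the start sites of Fgf23 and Fgf2 are shown because these members had the largest ratios of OSM to vehicle. Windows from 250 bases before to 50 bases after the canonical start site were searched on both strands for a STAT motif (TTCNNNGAA), an AP-1 motif (TGANTCA) and TATAAA. The STAT motif was found in 1914 of the 21630 windows of protein-coding genes (8.85%) and in 3 of the 10 members, Fgf2, Fgf23 and Fgfr4. It starts 101 bases before the start site of Fgf23, 124 bases before that of Fgf2 and 98 bases before that of Fgfr4, a gene without counts in all 3 libraries. The AP-1 motif (7.16% of windows) was found in 0 members, and TATAAA (13.2%) in Fgf16 and Fgf21, at 28 bases before both start sites. A match of letters is a description and does not show that a factor binds. The 250 bases before each start site are printed 5′ to 3′ with the STAT motif in capitals, both from the plus strand of GRCm39, chr6:127049615-127049864 for Fgf23 and chr3:37402245-37402494 for Fgf2.
Fgf23: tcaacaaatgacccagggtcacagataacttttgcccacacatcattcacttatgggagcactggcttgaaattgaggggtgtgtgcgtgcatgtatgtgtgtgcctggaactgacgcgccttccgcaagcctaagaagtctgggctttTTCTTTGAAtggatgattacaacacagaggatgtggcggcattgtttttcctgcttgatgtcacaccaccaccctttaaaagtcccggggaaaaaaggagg
Fgf2: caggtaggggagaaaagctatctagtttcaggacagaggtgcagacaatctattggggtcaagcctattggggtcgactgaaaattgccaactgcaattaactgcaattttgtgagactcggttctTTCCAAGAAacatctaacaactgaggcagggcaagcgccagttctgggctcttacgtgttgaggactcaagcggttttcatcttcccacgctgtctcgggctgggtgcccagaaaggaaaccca

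Levels of different genes were compared per length, in the authors' fpkm, with exact Poisson 95% intervals that cover counting error only. In vehicle-treated ACMs the members fell into widely separated levels. Fgf1 was the highest member at 44.5 fpkm (43.4 to 45.6), above 93.7% of the 13733 protein-coding genes with counts in this library. Of the summed fpkm of the members other than receptors, the intracellular Fgf13 included, Fgf1 made up 74.7% with vehicle. Its share was 70.0% with IL-6 and 71.1% with OSM. Fgf13 followed at 9.62 fpkm (9.03 to 10.2), so that Fgf1 stood 4.62-fold above it. Below them, Fgf16 (1.97 fpkm, 1.57 to 2.45), Fgf21 (1.70, 1.22 to 2.31), Fgfr1 (1.39, 1.24 to 1.54), Fgf9 (1.05, 0.869 to 1.25) and Fgf2 (0.752, 0.628 to 0.893) formed a chain in which each interval overlaps that of the next gene. Fgfr2 was low, at 0.111 fpkm (0.0743 to 0.159), and Fgfr4 and Fgf23 had 0 counts. With OSM the order of the leading genes, Fgf1 (44.0 fpkm) and Fgf13 (7.91), was the same. Fgf21 (2.82 fpkm), Fgf16 (2.44), Fgf23 (2.10) and Fgf2 (1.81) followed, and each of these intervals again overlaps the next. Fgf23 thus took a place among the low-level ligands in the OSM library, above 45.2% of the protein-coding genes with counts.

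**Figure D1:**
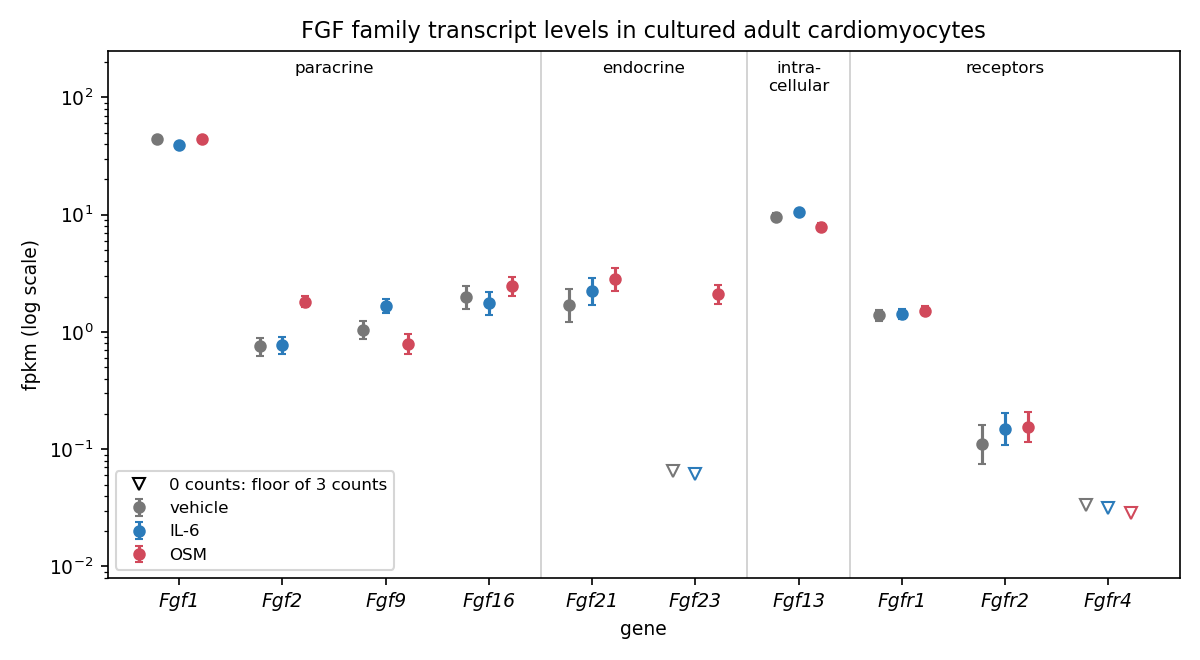
Level of each member in fpkm, on a log scale, in the vehicle, IL-6 and OSM libraries (1 library each). Bars are exact Poisson 95% intervals and open triangles mark the floor of 3 counts for genes with 0 counts. Fgf1 lies near 44 fpkm in the vehicle and OSM libraries, and Fgf23 is above its floor with OSM, at 2.10 fpkm.

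For ratios between libraries, counts were scaled with TMM factors, and a gene entered when its summed count in both libraries reached 10. Each log2 ratio is given with the 95% Clopper-Pearson interval of its counts, and a gene was called when the whole interval lay beyond 2-fold. In OSM against vehicle, 9 of the 10 members could be compared. By this rule 1 member, Fgf23, was higher with OSM and 0 were lower, beside 3.74% of all 15537 compared genes called higher and 5.43% called lower. Without counts with vehicle, Fgf23 entered this comparison through its OSM count alone. The intervals of 3 members (Fgf2, Fgf21 and Fgf23) lay wholly above 0 and those of 2 (Fgf9 and Fgf13) wholly below, where 33.4% and 33.1% of all compared genes did so. These shares of the members are near the background. The median log2 ratio of the 9 members, with Fgf23 at its bound, was 0.31, and that of all compared genes was 0.00.

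**Figure D2:**
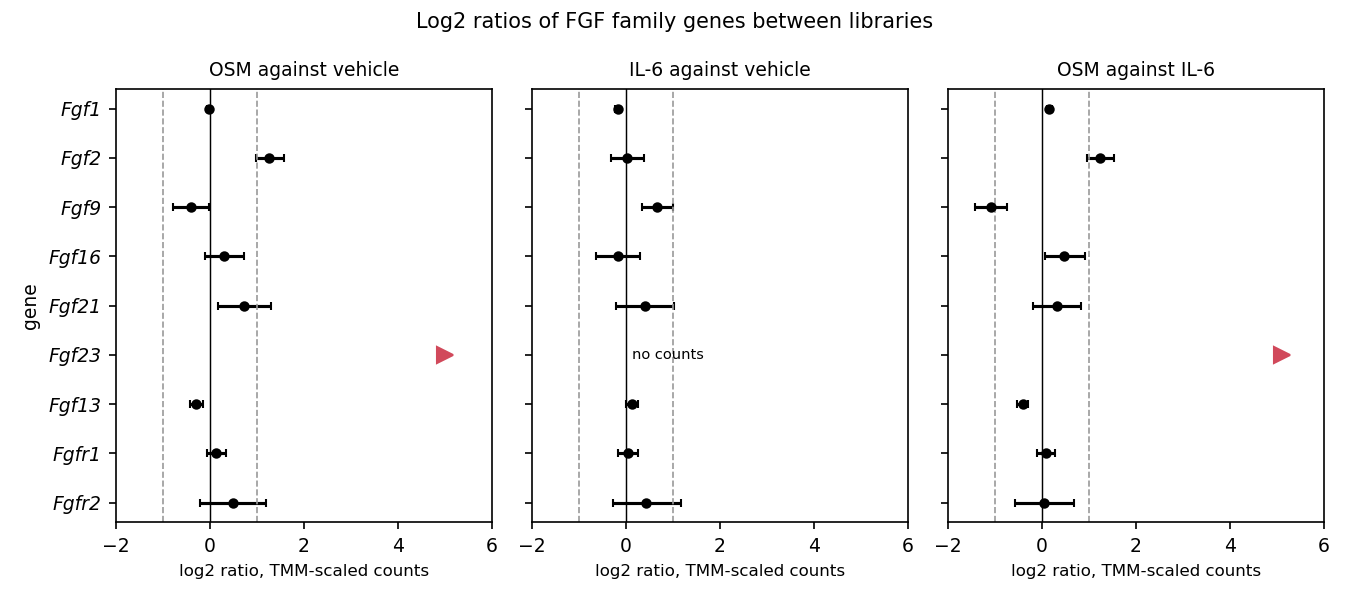
Log2 ratio of TMM-scaled counts for the 9 members with counts, in each pair of libraries, with 95% Clopper-Pearson intervals and dashed lines at 2-fold. Red arrowheads are bounds against a floor of 3 counts. Apart from Fgf23, the largest distances from 0 are those of Fgf2 (1.27 against vehicle, 1.24 against IL-6) and of Fgf9 in OSM against IL-6 (-1.07).

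Among the paracrine ligands, Fgf2 had the largest ratio. FGF2, or basic FGF, lacks a classical signal peptide and is released by injured and stressed cells, cardiomyocytes among them. Fgf2 had 129 counts with vehicle, 141 with IL-6 and 367 with OSM, so the vehicle and IL-6 libraries were close and the OSM library was high. Its log2 ratio of OSM to vehicle was 1.27 (0.97 to 1.57), or 2.41-fold, and the interval just includes 2-fold, so that it was not called. Protein-coding genes within 10% of its length had a median of -0.16, and with the trend on gene length removed its log2 ratio was 1.44 and it was called. Fgf2 lies on the plus strand of chromosome 3, from 37402495 to 37464257, and its 3′ end overlaps Nudt6 on the opposite strand. Of its canonical transcript, 47.9% is shared, on either strand, with transcripts of Nudt6 or of the same-strand gene Gm43439, which had no counts. Nudt6 had 196, 193 and 334 counts (log2 ratio of OSM to vehicle 0.53, 0.27 to 0.79), and since the strand setting of the counting is not given in the sources used here, the values of Fgf2 and Nudt6 are uncertain. Of the other genes that overlap Fgf2, Fgf2os had 0, 2 and 0 counts and Gm42923 had none.

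Fgf1, acidic FGF, binds all FGF receptors and also lacks a signal peptide. It had 6146 counts with vehicle, 5842 with IL-6 and 7182 with OSM, which gives levels of 44.5, 39.5 and 44.0 fpkm. Its log2 ratio of OSM to vehicle was -0.02 (-0.07 to 0.03), so the best counted member showed no difference beyond counting error. As a fold, the interval runs from 0.955 to 1.02.

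Fgf9 and Fgf16 belong to one subfamily of secreted FGFs, of which FGF9 is known from the embryonic heart and FGF16 as a ligand that postnatal cardiomyocytes make. Fgf9 had 123 counts with vehicle, 210 with IL-6 and 110 with OSM, highest in the IL-6 library. Its log2 ratio was -0.40 (-0.79 to -0.02) in OSM against vehicle and 0.67 (0.34 to 1.01) in IL-6 against vehicle. Fgf16 was counted 82, 78 and 120 times, with a log2 ratio of OSM to vehicle of 0.31 (-0.11 to 0.73) whose interval holds 0. Genes within 10% of the length of Fgf16, a short gene of 1645 bases, had a median of 0.43, and with the length trend removed its log2 ratio was -0.07. Fgf16 thus lay at the level of genes of its length. Of its transcript, 13.7% matched transcripts of the gene Gm62034 at 97% identity, with a longest match of 117 bases. Where Gm62034 lies, and whether it shares counts with Fgf16, was not tested. Markers of epicardial and mesothelial cells, a known site of Fgf9 expression in the embryo, summed to 0.441 CPM with vehicle, 2.09 with IL-6 and 1.01 with OSM. All 3 markers (Wt1, Upk3b and Msln) had counts in every library, and their part in the values of Fgf9 was not tested.

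Fgf21, the other endocrine member, encodes a hormone best known from liver and also made by stressed muscle and heart. Its counts were 41 with vehicle, 58 with IL-6 and 80 with OSM, the lowest with vehicle and the highest with OSM. The log2 ratio of OSM to vehicle was 0.72 (0.16 to 1.30), with the whole interval above 0 but not beyond 2-fold. Fgf21 is the shortest member at 951 bases, and genes within 10% of this length had a median of 0.56. With the length trend removed, the log2 ratio was 0.19. The co-receptors of the endocrine FGFs were hardly counted. Kl, which encodes alpha-Klotho, had 0 counts in all 3 libraries, and Klb, which encodes beta-Klotho, had 2 with vehicle and 0 with IL-6 and OSM.

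Fgf13, the intracellular member, encodes an FGF homologous factor that binds voltage-gated sodium channels. It had 978 counts with vehicle, 1144 with IL-6 and 949 with OSM, or 9.62, 10.5 and 7.91 fpkm. The OSM library was lowest on the fpkm scale and the IL-6 library highest. Its log2 ratio was -0.28 (-0.42 to -0.15) in OSM against vehicle and 0.13 (0.00 to 0.25) in IL-6 against vehicle, both within 2-fold. Of the listed partners of intracellular FGFs, Cacna1c, which encodes a subunit of the L-type calcium channel, fell from 3849 counts with vehicle to 2071 with OSM (log2 ratio -1.14, -1.21 to -1.06). With the length trend removed, Cacna1c was no longer called. Mapk8ip2, a scaffold known to bind FGF homologous factors, had 0, 2 and 0 counts with vehicle, IL-6 and OSM.

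Among the receptors, Fgfr1, the main FGF receptor of cardiomyocytes, had 346 counts with vehicle, 383 with IL-6 and 449 with OSM. These counts differ little once scaled, with a log2 ratio of OSM to vehicle of 0.13 (-0.07 to 0.34) and of IL-6 to vehicle of 0.05 (-0.17 to 0.26). Both intervals hold 0. Fgfr1 is a long gene of 9875 bases, and genes within 10% of its length had a median of -0.36 in OSM against vehicle, so that with the length trend removed its log2 ratio was 0.53. Fgfr2 had 29, 42 and 48 counts, a log2 ratio of OSM to vehicle of 0.49 (-0.21 to 1.20). Its level was 12.5-fold below that of Fgfr1 with vehicle in fpkm. The annotation used by the authors lets Fgfr2 span 2960899 bases of the minus strand of chromosome 7, over 71 other genes of which 27 had at least 10 counts, whereas its canonical transcript spans 104802 bases, so its few counts are uncertain. Fgfr4, an FGF receptor gene best known from liver, had 0 counts in every library. The upper limits of its Poisson 95% intervals were 0.0412 fpkm with vehicle and 0.0349 fpkm with OSM. Of the 3 member receptors, Fgfr1 was thus the highest in every library.

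**Figure D3:**
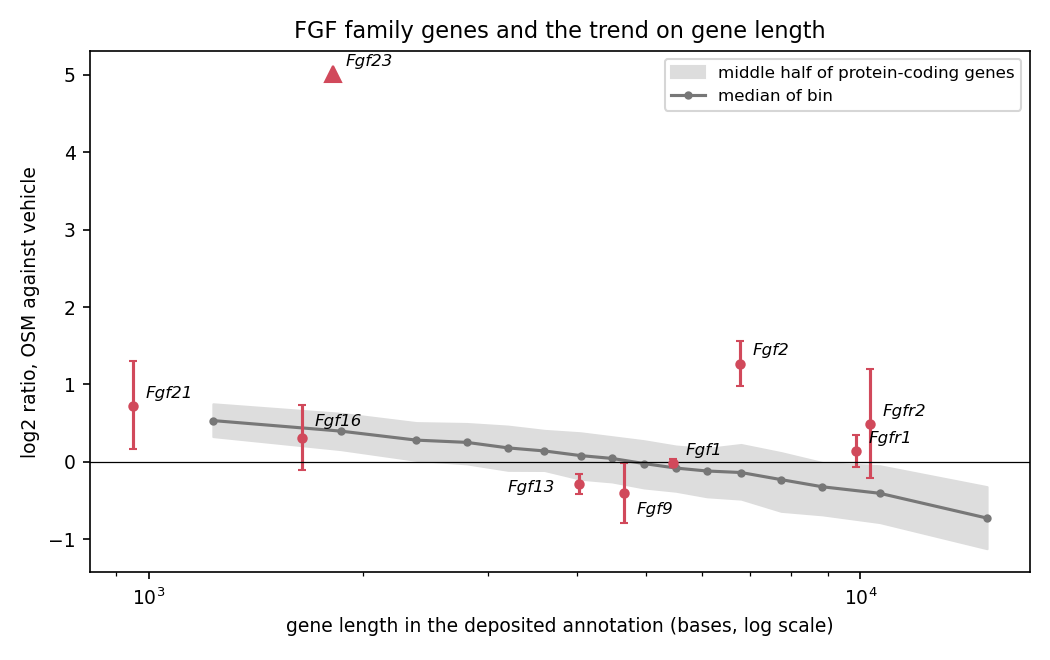
Log2 ratio of OSM to vehicle of each member (red, 95% Clopper-Pearson interval; triangle, lower bound) against gene length on a log scale. The grey line and band are the median and interquartile range of protein-coding genes in 16 bins of length. The median runs from 0.53 in the shortest bin to -0.73 in the longest, and Fgf2, Fgf23, Fgfr1 and Fgfr2 lie above the band.

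Longer genes had lower log2 ratios of OSM to vehicle, with a Spearman's rho of -0.52 over 9445 protein-coding genes whose counts averaged 100 or more. This value is across genes and says nothing of replicates. The plot against gene length shows where the members lie on this trend. Fgf21 and Fgf16, which are short, lie on or near the line, Fgf13 and Fgf9 lie below it, and Fgfr1, Fgfr2 and Fgf2 lie above it. Against the trend, the bound of Fgf23 was a log2 ratio of 4.66 in place of 5.01. What gives rise to the trend was not tested.

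In IL-6 against vehicle, log2 ratios lay nearer to 0 than in OSM against vehicle for most members, but further from 0 for Fgf9 and Fgf1. Of the 8 members compared, 0 were called higher or lower, beside 1.77% and 1.74% of all 15472 compared genes. The intervals of Fgf9 (0.67, 0.34 to 1.01) and Fgf13 (0.13, 0.00 to 0.25) lay above 0, and that of Fgf1 (-0.17, -0.22 to -0.12) below, where 19.6% and 19.1% of all compared genes lay above and below. The interval of Fgf2 (0.03, -0.33 to 0.38) held 0, as did those of Fgf16, Fgf21, Fgfr1 and Fgfr2. With IL-6 no member therefore had its whole interval beyond 2-fold, and Fgf23 had no counts. The upper limits of Fgf9 (1.01), Fgf21 (1.01) and Fgfr2 (1.17) passed 2-fold.

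The direct comparison of OSM with IL-6, which uses the same OSM library, again called Fgf23 alone higher and 0 members lower of 9 compared, beside 4.24% and 5.42% of all 15544 compared genes. Fgf2 had a log2 ratio of 1.24 (0.95 to 1.53) and Fgf9 of -1.07 (-1.42 to -0.73), neither of them beyond 2-fold with the whole interval. Fgf13 (-0.41, -0.54 to -0.29) was also below 0, and Fgf1 (0.16, 0.11 to 0.21) and Fgf16 (0.48, 0.06 to 0.91) were above it. In all, 4 members lay above 0 and 2 below, where 33.2% of all compared genes lay above and the same share, 33.2%, below. For Fgf9 and Fgf13, OSM lay below vehicle and IL-6 above it beyond counting error, and both ratios share the vehicle library. Some limits were close to 0, at -0.02 for Fgf9 in OSM against vehicle and 0.002 for Fgf13 in IL-6 against vehicle. Upper-quartile factors moved the ratio of Fgf9 in OSM against vehicle from -0.40 to -0.37, by more than its limit's distance from 0. Whether this interval of Fgf9 holds 0 thus depends on the scaling.

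The remaining FGF genes were a list of 15, of which 7 had enough counts in OSM against vehicle. Of these, 0 were higher and 1 was lower (median -0.12), beside 3.74% and 5.43% of all compared genes. Fgf7, which encodes keratinocyte growth factor, a ligand that fibroblasts are known to make for epithelial cells, was counted 32 times with vehicle, 38 with IL-6 and 4 with OSM. It fell in the OSM library, with a log2 ratio of -3.24 (-5.20 to -1.75). Fibroblast markers summed over the list of 8 to 5.65 CPM with vehicle, 5.46 with IL-6 and 6.37 with OSM, and Col1a1, Tcf21 and Postn were at 0 with OSM. Dcn, with 49 counts with vehicle and 131 with OSM, made the sum higher with OSM, whereas the other 7 markers had the same or fewer counts than with vehicle and the median log2 ratio of the 5 compared markers was -0.34. Their part in the fall of Fgf7 was not tested. In bulk RNA, fewer cells of a type and less RNA per cell cannot be told apart. Fgf18, the best counted of the list, had 43, 45 and 70 counts (0.46, -0.11 to 1.04). Fgf11, another FGF homologous factor, had 28, 25 and 10 (-1.73, -2.93 to -0.64) and was not called. Fgf3, Fgf4, Fgf8, Fgf15 and Fgf20 had no counts in all 3 libraries.

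Of the other receptors, Fgfrl1, which encodes a receptor without a kinase domain, was the best counted, with 889, 1013 and 905 counts and 12.6 fpkm with vehicle. Its log2 ratio of OSM to vehicle was -0.22 (-0.35 to -0.08). Fgfr3 had 36 counts with vehicle, 24 with IL-6 and 66 with OSM (0.63, 0.03 to 1.26). None of the 2 compared genes of this list of 4 was called, beside 3.74% of all compared genes called higher and 5.43% lower.

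Heparan sulfate carries FGFs to their receptors. Of 21 genes for FGF-binding proteins, proteoglycans and heparan sulfate enzymes, 18 were compared, of which 1 was higher and 1 lower (median -0.07), near the 3.74% and 5.43% of all compared genes. Sdc4, which encodes syndecan-4, a co-receptor of FGF2 signalling, had 440 counts with vehicle, 416 with IL-6 and 1956 with OSM. It rose, with a log2 ratio of 1.91 (1.76 to 2.06). Hspg2, which encodes perlecan, a basement membrane proteoglycan, fell from 2585 to 1273 counts (-1.26, -1.36 to -1.17), and with the length trend removed it was no longer called. Gpc1, glypican-1, was the best counted, with 8666 counts with vehicle and 9121 with OSM (-0.17, -0.21 to -0.13).

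All 22 genes of the receptor adaptors and the ERK cascade were compared, of which 1 was higher and 2 were lower (median -0.15), also near the 3.74% and 5.43% of all compared genes. Shb, an adaptor of tyrosine kinase receptors, rose from 1328 to 4352 counts (1.47, 1.38 to 1.56). Gab1, a docking protein, fell from 1225 to 646 (-1.16, -1.30 to -1.03), and Sos1, a RAS exchange factor, from 1302 to 688 (-1.16, -1.30 to -1.03). Neither of these falls was called with the upper-quartile factors or with the length trend removed. Frs2, the adaptor that couples FGF receptors to ERK, had 939, 1184 and 522 counts with vehicle, IL-6 and OSM (-1.09, -1.25 to -0.93). Ptpn11, the phosphatase SHP2, was the best counted at 11427 with vehicle and 8782 with OSM (-0.62, -0.66 to -0.58).

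Genes of feedback on and response to FGF and ERK signalling had the most calls higher of these lists. These genes are not specific to FGF and respond to many ERK stimuli. Of 17 listed, 16 were found by name in the table and 15 were compared, 6 were higher, 0 were lower and the median log2 ratio was 0.88, beside 3.74% of all compared genes called higher and 5.43% lower. Spred3, an inhibitor of the ERK cascade, rose from 20 to 456 counts (4.27, 3.63 to 4.99). The ERK phosphatases Dusp6 (285 to 2123 counts, 2.66, 2.48 to 2.84) and Dusp5 (237 to 1215, 2.12, 1.91 to 2.32) rose, as did Egr1 (1241 to 3921, 1.42, 1.33 to 1.51). With IL-6 these 4 genes had 15, 251, 249 and 1157 counts, and none of them was called against vehicle. Not every gene of the list was higher with OSM. Il17rd (37 to 15 counts, -1.54, -2.52 to -0.64) and Etv1 (58 to 34, -1.01, -1.67 to -0.38) lay wholly below 0 but were not called. Dusp4 (-0.07, -0.50 to 0.36) and Spred2 (0.02, -0.22 to 0.26) lay near 0. Etv4, an ETS factor, had 0, 0 and 12 counts, and its bound against the floor was 3.38-fold for OSM over vehicle. The lower 95% limit of its log2 ratio, 1.23, is a smaller fold than this bound. Flrt2, which encodes a membrane protein that binds FGF receptors, had 0 counts with vehicle, 24 with IL-6 and 18 with OSM. Its bound for OSM over vehicle was 5.07-fold, and the lower limit of its log2 ratio, 1.89, is again a smaller fold. Without counts with vehicle, Etv4 and Flrt2 passed the limit of 10 summed counts through their OSM counts alone. A gene that enters in this way can hardly be other than higher, so these calls add little. Flrt3, with 0 counts with vehicle and 6 with OSM, was not compared.

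Genes around the endocrine members gave the following values. Of 9 genes of FGF23 processing and control, 5 were compared and 0 were called (median 0.36). Over all compared genes, 3.74% were called higher and 5.43% lower. Furin, which encodes the protease that cleaves FGF23, had 3247 counts with vehicle and 3480 with OSM (-0.14, -0.21 to -0.07), and Fam20c, which encodes the kinase that phosphorylates it, 522 and 979 (0.67, 0.51 to 0.82). Galnt3, whose product protects FGF23 from cleavage, had 2, 3 and 2 counts. The osteocyte genes Dmp1, Phex and Mepe were at 0 in every library. Of 5 regulators of Fgf21, 0 were higher and 2 were lower (median -0.51), beside the same 3.74% and 5.43%. Ppara, a nuclear receptor that induces Fgf21 in liver, fell from 300 to 103 counts (-1.78, -2.12 to -1.46), and Ppargc1a, a coactivator, from 1035 to 351 (-1.80, -1.98 to -1.63). Atf4, the stress factor that also induces Fgf21, had 21063 and 33006 counts (0.41, 0.38 to 0.43).

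**Figure D4:**
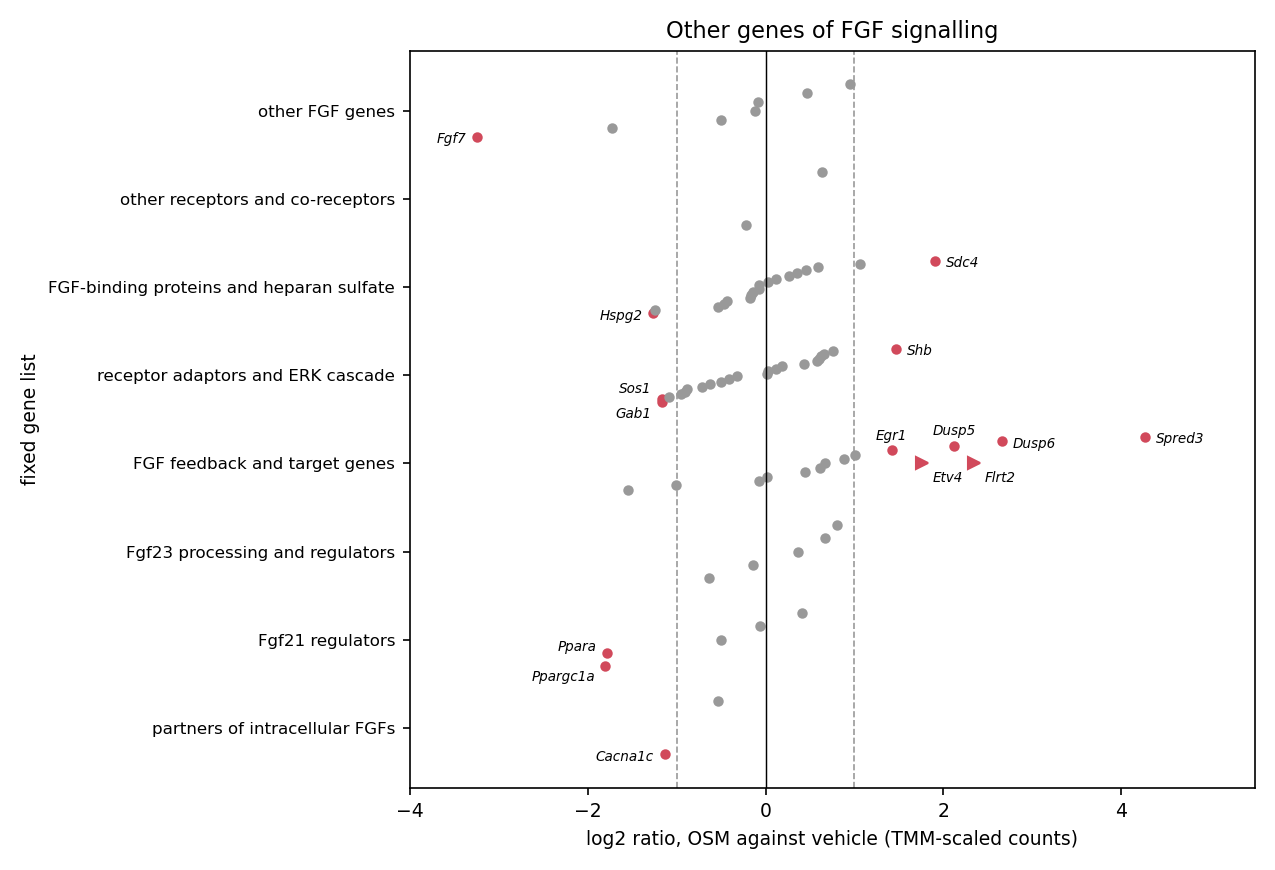
Log2 ratio of OSM to vehicle for the compared genes of the other lists. Red points are called and named, grey points are not, arrowheads are lower bounds for genes with 0 counts with vehicle, and dashed lines mark 2-fold. Among 15 compared feedback and target genes, 6 lie to the right of the 2-fold line as calls.

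The cell identity of the libraries was checked on marker genes. The 8 cardiomyocyte markers summed to between 26919 and 30490 CPM, all of them counted in every library, and Ryr2 and Ttn were called lower with OSM. Endothelial markers summed to between 34.8 and 36.7 CPM, and smooth muscle and pericyte markers to between 36.2 and 43.7 CPM. Macrophage markers summed to 23.1, 23.3 and 53.1 CPM with vehicle, IL-6 and OSM. Cd68 alone, with 382, 448 and 1419 counts, made the sum higher with OSM and was called. Csf1r had 187, 166 and 209 counts (log2 ratio of OSM to vehicle -0.08, -0.37 to 0.21) and Adgre1 had 8, 0 and 6. C1qa, C1qb and Ptprc were at 0 in all 3 libraries. The part of these cells in the values of the members was not tested.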

How the data were processed

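RNA from cultured ACMs was sequenced after poly-A selection, and the submitters' notes name the build mm39 (GRCm39). The submitters' processing notes name fastp, HISAT2 2.2.1, featureCounts 2.0.6 and edgeR 4.0.16, and the paper's methods give other versions of featureCounts and edgeR. The authors deposited raw counts for each gene, which are whole numbers, and fpkm values beside them. The labels describe both stranded and unstranded library preparation, and which was used, and the strand setting of counting, are not given in the sources used here. Libraries were matched to conditions by the library names in the labels (0 columns unmatched). TMM factors were computed for each pair of libraries with edgeR 4.0.16 in R 4.3.3, and intervals with scipy 1.17.1. Genes with at least 10 counts over a pair were compared. Intervals and the floor of 3 counts cover counting error only, because each condition has 1 library. As a further limit on them, amplified reads that carry no molecular identifier cannot be counted as separate molecules. The call rule was tested on simulated data. The alternatives were DESeq2 1.42.0 size factors, library totals, upper-quartile factors, other filters and fold limits, an edgeR exact test at preset biological coefficients of variation (BCV), the deposited fpkm, and removal of a lowess trend on gene length.

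The members, lists and alternatives were chosen with earlier results of these data known. All members were named, together with the called genes and the best counted gene of each list, genes that overlap a member and the 3 genes nearest to a called member. Other genes of the lists, such as Frs2, Fgf11, Fgfr3, Fam20c, Galnt3, Il17rd, Etv1, Dusp4, Spred2 and Csf1r, were named after their values were seen. The best counted gene of 1 list is not reported here. Motif windows and exons come from GENCODE M39 on GRCm39, whose gene ends differ from the authors' annotation for all 10 members.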

Additional observations from a re-analysis of the deposited data

How the results depend on the processing

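Fgf23 was called higher than with vehicle and than with IL-6 under every alternative that makes a call, including edgeR's exact test with an assumed BCV of 0.4, and its bound lay between 4.66 and 5.04 (log2) against vehicle. Fgf2 decided the counts that moved. The number of members higher with OSM than with vehicle was 2 in place of 1, by Fgf2, with upper-quartile factors, point estimates, a 1.5-fold limit, the length trend removed and the exact test at a BCV of 0.2. It was also 2 in OSM against IL-6, again by Fgf2, with point estimates, a 1.5-fold limit, the length trend removed and a BCV of 0.2, and with point estimates and a 1.5-fold limit 1 member, Fgf9, was lower. With the length trend removed, calls fell to 1 for the heparan sulfate list, to 1 for the adaptors, which upper-quartile factors also left at 1, and to 0 for the partners of intracellular FGFs, and rose from 6 to 7, by Spred1, for the feedback and target genes. The log2 ratio changed sign for Fgf1 (-0.08 to 0.06) and Fgf16 (-0.07 to 0.34) in OSM against vehicle and for Fgf21 (-0.19 to 0.35) and Fgfr2 (-0.03 to 0.47) in OSM against IL-6, and none of these was called.

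Over all genes, calls in OSM against vehicle ranged from 43 (BCV of 0.4) to 1565 (point estimates) higher, around 581, and from 11 to 2034 lower, around 844. In IL-6 against vehicle they ranged from 1 to 1033 higher, around 274, and from 0 to 1025 lower, around 269. In OSM against IL-6 they ranged from 57 to 1557, around 659, and from 20 to 1981, around 843. A 4-fold limit moved the share of higher among called genes from 50.5% to 35.4% in IL-6 against vehicle and from 43.9% to 54.9% in OSM against IL-6. No paired analysis was possible because each condition has 1 library, and no library could be left out. Fgf21 and Fgfr2, with under 100 counts in each library, are limited by depth.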

Other observations

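A few thinly counted genes of the FGF lists differed between libraries away from the main members. Fgf22, which encodes a ligand known from synapses and skin, had 7 counts with vehicle, 36 with IL-6 and 16 with OSM, and was higher with IL-6 than with vehicle (log2 ratio 2.26, 1.07 to 3.68). Fgf6, known from skeletal muscle, had 9, 0 and 10 counts, and its bound against the floor was 3.02-fold for OSM over IL-6. The lower 95% limit of its log2 ratio, 1.02, is a smaller fold than this bound. Flrt2 and Flrt3 had 0 counts with vehicle, and 24 and 10 with IL-6. Msln, a mesothelial marker, had 1, 33 and 13 counts. These values have no replicate check.

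The long Fgf13 locus on the X chromosome holds genes on the opposite strand. The lncRNA gene ENSMUSG00000120929 had 12 counts with vehicle, 2 with IL-6 and 0 with OSM, and the processed pseudogene Gm14890 had 12, 1 and 0. Both lie within Fgf13, which had 978, 1144 and 949 counts. They were named after their values were seen.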
